A study of Mus musculus with 11 samples.

Results

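Protocadherins are the largest group of the cadherin superfamily, adhesion proteins of the cell surface, and the group described here holds every gene whose symbol in the authors' deposited tables begins with Pcdh. That rule uses names alone and gave 43 of the 14667 genes listed. By symbol 32 of them are clustered protocadherins, 19 of the beta and 13 of the gamma cluster, and 11 are non-clustered. Genes of the alpha cluster are not analysed here.

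Libraries were made from C57/BL6 mice given a virus, from tissue of the nucleus accumbens, a ventral striatal region with roles in reward and motivation. The groups were E2F3a virus with saline (4 mice), GFP virus with cocaine (3 mice) and GFP virus with saline (4 mice), with tissue from 1 mouse in each library. E2F3a is a variant of the transcription factor E2F3, known for driving cell cycle genes, and GFP is a fluorescent protein that serves as the control virus. Every group therefore carried a virus, and the E2F3a group differs from the cocaine group in virus and in treatment. The kind of virus, the promoter in it, the cocaine dose and its timing, and the age and sex of the mice are not stated in the labels used here.

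The values are comparison statistics made by the authors: a log2 fold change for E2F3a over GFP in saline mice, a log2 fold change for cocaine over saline in GFP mice, and a mean log2 expression over the libraries. Both comparisons use the same GFP saline mice, so an error in that group moves both in the same direction. Values per library were not used here, so neither the overlap of groups nor depth can be shown, and precision comes from each gene's standard error (SE), as implied by its t statistic. Median SE over all genes was 0.144 on the log2 scale for E2F3a and 0.157 for cocaine. The authors' moderated test called 0 genes (0%) at an adjusted p under 0.05 in either comparison, among them 0 of the 43 protocadherins, so what follows describes estimates and their intervals.

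Protocadherins join like to like across cell contacts through their extracellular cadherin repeats. In the clusters each gene has a promoter of its own, and a neuron switches on a small, partly random choice of them with the help of CTCF and cohesin. That choice gives each neuron a surface identity used in self-avoidance of dendrites. Gamma genes splice their own first exon onto a set of constant exons, while beta genes are mostly single exons and lack that constant part. The non-clustered genes stand apart in the genome, and most fall into the delta-1 and delta-2 subfamilies, which differ in their cytoplasmic tails and act in axon guidance, synapse formation and synapse removal.

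Promoter sequences are shown for the delta-2 subfamily and for Pcdh9, because delta-2 had the highest median with cocaine among the non-clustered subfamilies and because the study's virus carries a transcription factor. Sequences are those of RefSeq on GRCm38.p6, in a table of 27025 promoters. Each runs from 250 bases before to 50 bases after an annotated start of its gene, and 9 non-clustered members were matched. Pcdh10 is printed in full (chr3:45378148-45378447, plus strand), with capitals on each CCAAT or ATTGG, the box bound by NF-Y, and on each TGACG, the core of the cAMP response element bound by CREB. For the other genes the 40 bases around the CCAAT box before and nearest to the start are printed, with the box in capitals. These are chr14:84443488-84443527 (plus strand) for Pcdh17, chr3:49757326-49757365 (minus strand) for Pcdh18, chrX:133689036-133689075 (minus strand) for Pcdh19, chr14:79771358-79771397 (minus strand) for Pcdh8 and chr14:93890739-93890778 for Pcdh9, a gene of the minus strand printed on the plus strand.
Pcdh10: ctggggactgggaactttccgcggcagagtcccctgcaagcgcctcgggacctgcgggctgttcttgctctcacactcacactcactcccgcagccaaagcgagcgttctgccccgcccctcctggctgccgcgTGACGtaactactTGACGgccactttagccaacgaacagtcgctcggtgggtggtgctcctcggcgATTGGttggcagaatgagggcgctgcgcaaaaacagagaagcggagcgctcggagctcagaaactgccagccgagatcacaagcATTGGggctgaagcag
Pcdh17: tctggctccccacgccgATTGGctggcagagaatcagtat
Pcdh18: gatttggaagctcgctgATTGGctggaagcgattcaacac
Pcdh19: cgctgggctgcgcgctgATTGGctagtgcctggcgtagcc
Pcdh8: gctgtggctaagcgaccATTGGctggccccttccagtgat
Pcdh9: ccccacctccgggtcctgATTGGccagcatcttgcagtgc

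Motifs were searched on both strands of each promoter, and a match is a description of letters only. CCAAT was in 8 of the 9 members, all but Pcdh7, and in 37.9% of all 27025 promoters. Among the delta-2 genes the printed box began at position -50 from the start in Pcdh10, -58 in Pcdh17, -32 in Pcdh18, -65 in Pcdh19 and -68 in Pcdh8. The longer run ATTGGCTGG, which contains the box and was chosen after the sequences were seen, was in Pcdh8, Pcdh17 and Pcdh18 and in 1.1% of all promoters. TGACG was in 2 members and in 21% of all promoters. Pcdh10 held it at positions -116 and -103, and Pcdh9 held it on the opposite strand at -52. The full element TGACGTCA was in 0 of 9 members and 1.88% of all promoters. The E2F letters TTTCCCGC, TTTCGCGC, TTTGCCGC and TTTGGCGC were in 0 of the 9 windows, against 2.32% of all promoters holding at least 1 of them. TATAAA was in Pcdh8 at -30, in Pcdh15 at -33, and in 14.2% of all promoters. The Pcdh15 window (chr10:73821617-73821916) lies inside the gene as annotated in GENCODE M21 (73099342 to 74649737, plus strand). Its CCAAT and TATAAA matches therefore belong to an internal start.

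The overexpressed gene was checked before the members were read. E2f3 had a log2 fold change of 1.01 (SE 0.20, 95% interval 0.57 to 1.45, p = 0.000337 unadjusted, adjusted p = 1.00 by the authors' moderated test) for E2F3a over GFP in the authors' deposited table, a 2.02-fold higher level. Its value for cocaine over saline was -0.08 (SE 0.22) in the authors' deposited table. Transcripts of the virus and of the chromosomal gene cannot be told apart in these values.

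Levels of the members spanned a wide range, and the non-clustered genes held the top of it. Pcdh10, a delta-2 protocadherin that takes part in activity-dependent loss of excitatory synapses in mouse neurons, stood at a mean log2 expression of 8.24 in the authors' deposited tables, the 96.9th percentile of all genes. Pcdh1, a delta-1 member studied mostly in human airway epithelium, followed at 7.46 (92.3rd percentile) in the authors' deposited tables. Pcdh17, a delta-2 member known from circuits between cortex and basal ganglia in mice, came next at 7.29 (91.0th percentile) in the authors' deposited tables. Pcdh9 at 6.70 and Pcdh7 at 6.38, both delta-1, were the other members above a mean log2 expression of 6 in the authors' deposited tables. The X-linked Pcdh19, whose human gene is mutated in an epilepsy of girls, stood at 5.40 and the X-linked Pcdh11x at 5.32 in the authors' deposited tables. Pcdh15, a tip-link protein of inner ear hair cells, stood at 4.74, Pcdh8 at 4.39, Pcdh18 at 3.67 and Pcdh20 at 3.34 in the authors' deposited tables.

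Clustered genes lay lower over whole genes. Beta genes ran in mean log2 expression from 1.49 for Pcdhb12 to 4.53 for Pcdhb17, and gamma genes from 2.58 for Pcdhgb4 to 4.44 for Pcdhgb6, in the authors' deposited tables. The median was 3.42 over the 32 clustered members, 5.40 over the 11 non-clustered members and 4.79 over all genes in the authors' deposited tables. Per kilobase of exon the level of Pcdh1 (4.32 on the log2 scale) and that of Pcdh10 (4.25) were close, and medians per kilobase were 1.07 for clustered members, 2.21 for non-clustered members and 2.60 for all genes. Counted per kilobase of exon that no other gene shares, which applies only if reads in shared exons were left out, the median was 2.22 for the 13 gamma genes, 1.07 for the 19 beta genes and 2.36 for the non-clustered members. Over all exons the gamma median was 1.21, so it lay below that of non-clustered members under each count. The size of the gap depends on how shared exons were counted. Of the 43 members, 29 had a mean log2 expression above 3.21, the 25th percentile of all genes. Neighbours in this order were not tested against each other, since the tables give no spread of a level.

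**Figure D1:**
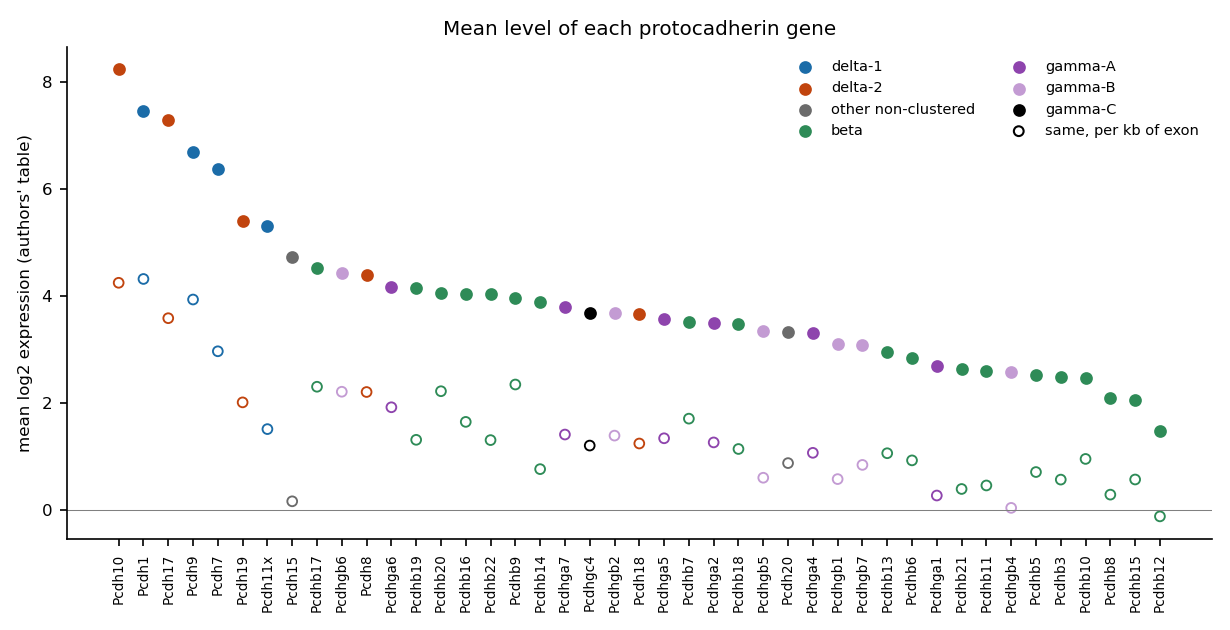
Mean log2 expression over the libraries (vertical axis) of each protocadherin gene, ordered by level from left to right and coloured by subfamily, with filled points as deposited and open points per kilobase of exon. Pcdh10 at 8.24 and Pcdh1 at 7.46 are the highest, and the clustered genes lie between 1.49 and 4.53, below the median of all genes.

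With E2F3a the protocadherins as a group sat slightly above 0. The median log2 fold change of the 43 members was 0.11 against 0.0077 over all genes, and 35 of 43 (81.4%) were above 0 against 52.5% of all genes, from the authors' deposited table. At an unadjusted p under 0.05, 2 members were higher and 0 lower, where 0.545% of all genes were higher and 0.409% lower by the authors' moderated test. Both were genes of the gamma-A group, Pcdhga1 and Pcdhga6. The smallest adjusted p of any member was 1.00.

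With cocaine the members' estimates were larger and reached across all subfamilies. Their median log2 fold change was 0.23 against -0.02 over all genes, and 39 of 43 (90.7%) were above 0 against 46.2% of all genes, from the authors' deposited table. At an unadjusted p under 0.05, 3 members were higher and 0 lower, where 1.74% of all genes were higher and 7.51% lower by the authors' moderated test. The 3 were Pcdh10, Pcdhga6 and Pcdhb19, a gene each of the delta-2, gamma and beta groups, and their adjusted p-values were 0.533, 0.533 and 0.539. In bulk tissue, fewer cells of a type and less RNA per cell cannot be told apart, and the same holds for more cells and more RNA. Gamma members share part of their exons, and all 43 members were measured in the same libraries, so the members are not independent of each other.

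**Figure D2:**
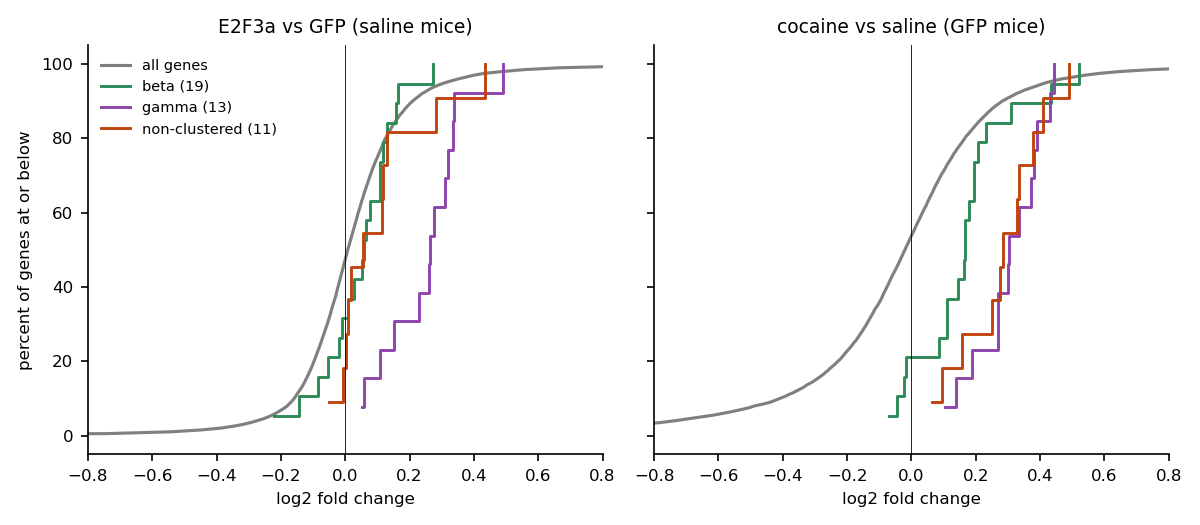
Percent of genes at or below a log2 fold change (vertical axis) against that log2 fold change (horizontal axis) for E2F3a over GFP on the left and cocaine over saline on the right, with lines for beta, gamma and non-clustered protocadherins and for all genes. With E2F3a the gamma line (median 0.26) lies well to the right of all genes (median 0.0077), and with cocaine the beta (0.17), non-clustered (0.28) and gamma (0.30) lines lie to the right of all genes (-0.02) over most of their length.

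Among the non-clustered subfamilies delta-2 had the highest median with cocaine as deposited, though single genes of the others overlap its range. All 5 delta-2 genes were above 0, from 0.28 to 0.49 with a median of 0.38, in the authors' deposited table for cocaine. The same 5 genes ran from 0.02 to 0.43 with a median of 0.11 in the authors' deposited table for E2F3a. With the trend in transcript length and mean expression described further on removed, the delta-2 median with cocaine was 0.19, against 0.05 for delta-1 and 0.18 for Pcdh15 and Pcdh20 together. Under that removal Pcdh10 stood at 0.14 and Pcdh17 at 0.0041 with cocaine.

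Pcdh10 had a log2 fold change of 0.06 (SE 0.13, 95% interval -0.22 to 0.34, p = 0.665) for E2F3a in the authors' deposited table. For cocaine its value was 0.33 (SE 0.14, 95% interval 0.03 to 0.64, p = 0.0337 unadjusted by the authors' moderated test), a 1.26-fold higher level in the authors' deposited table. Its interval for E2F3a includes 0 and that for cocaine does not at the unadjusted level. Set directly against each other, E2F3a saline minus GFP cocaine mice differed by -0.28 (95% interval -0.58 to 0.03, adjusted p = 0.935 by the approximate moderated test), so the difference between the groups did not pass the threshold.

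Pcdh18, which binds the reelin adaptor Dab1 in mice, showed the widest separation in that direct difference. Its log2 fold change was 0.02 (SE 0.19, 95% interval -0.39 to 0.43, p = 0.928) for E2F3a in the authors' deposited table. Its cocaine value was 0.41 (SE 0.20, 95% interval -0.02 to 0.84, p = 0.0608 by the authors' moderated test) in the authors' deposited table. The difference, E2F3a minus cocaine, was -0.39 (95% interval -0.82 to 0.04, adjusted p = 0.935 by the approximate moderated test), and every one of these intervals includes 0.

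Pcdh17 stood at 0.13 (SE 0.13, 95% interval -0.17 to 0.42, p = 0.360) for E2F3a in the authors' deposited table. With cocaine it stood at 0.28 (SE 0.15, 95% interval -0.05 to 0.60, p = 0.0854 by the authors' moderated test) in the authors' deposited table. Both intervals reach below 0 and overlap over most of their length. Pcdh8, known in rats as arcadlin and induced by neuronal activity, had the highest non-clustered estimates, 0.43 (SE 0.38) for E2F3a and 0.49 (SE 0.41) for cocaine in the authors' deposited tables. Its SEs are more than 2 times the median over all genes, so neither value stands clear of 0. Pcdh19 stood at 0.11 (SE 0.26) for E2F3a and 0.38 (SE 0.28) for cocaine in the authors' deposited tables.

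The delta-1 genes, which carry a binding motif for protein phosphatase-1 in their tails, had lower estimates. Pcdh1 stood at -0.01 (SE 0.14, 95% interval -0.32 to 0.30, p = 0.957) for E2F3a in the authors' deposited table. With cocaine it stood at 0.28 (SE 0.15, 95% interval -0.05 to 0.62, p = 0.0891 by the authors' moderated test) in the authors' deposited table. Pcdh7 had -0.05 for E2F3a and 0.06 for cocaine, and Pcdh9 had 0.01 and 0.09 in the same order, in the authors' deposited tables. Pcdh11x stood at 0.12 for E2F3a and 0.25 for cocaine in the authors' deposited tables. Outside the delta subfamilies, Pcdh15 had 0.28 for E2F3a and 0.33 for cocaine, and Pcdh20 had 0.0032 and 0.16, in the authors' deposited tables. All 11 non-clustered genes were above 0 with cocaine against 46.2% of all genes, and the intervals of 10 included 0, a share like that over all genes (13311 of 14667). With E2F3a 9 of 11 were above 0 against 52.5% of all genes, or 2 of 11 once that trend was removed, and all 11 intervals included 0.

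**Figure D3:**
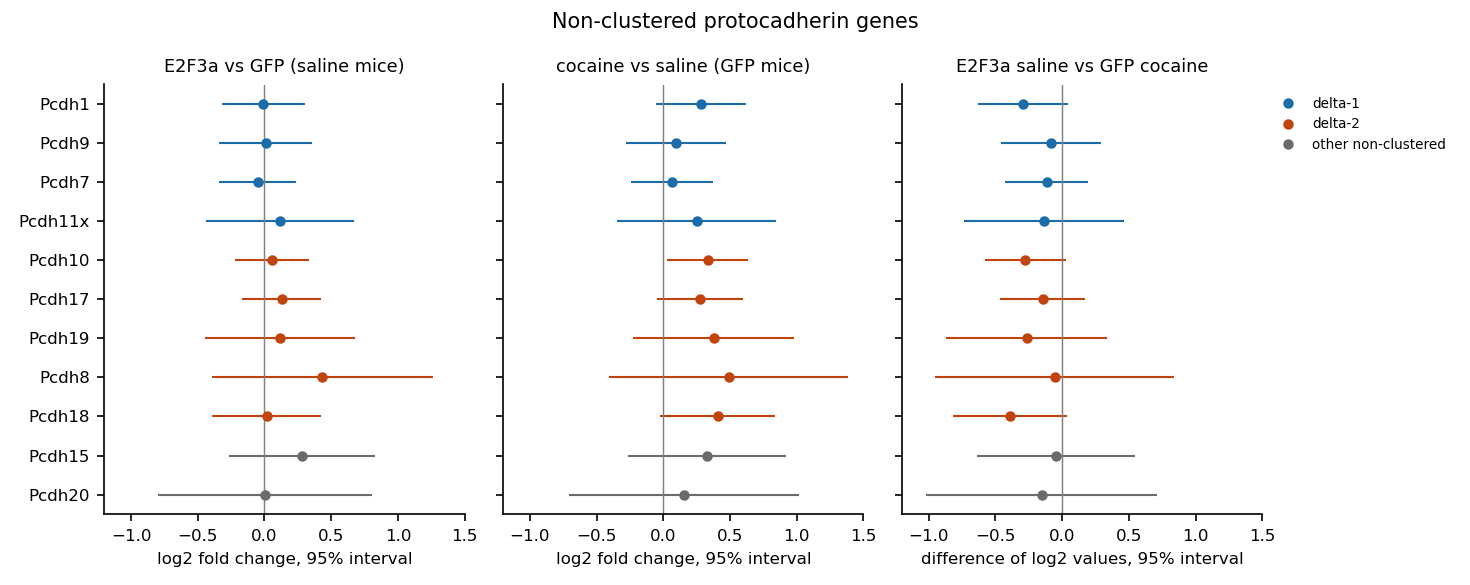
Log2 fold change (horizontal axis) with 95% interval of the 11 non-clustered protocadherins in 3 panels, E2F3a over GFP in saline mice, cocaine over saline in GFP mice, and the difference E2F3a saline minus GFP cocaine. Pcdh10 with cocaine (0.03 to 0.64) is the interval that leaves out 0, and all 11 differences in the third panel lie below 0 with intervals that include it.

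The clustered genes lie side by side on mouse chromosome 18 (mm10, coordinates of GENCODE M21), all on the plus strand. The first beta gene measured, Pcdhb3, spans 37300799 to 37304585 there, and the last gamma gene, Pcdhgc4, spans 37815079 to 37841873. Gamma genes end at shared constant exons, so 31.5 to 66.8% (median 45.2%) of a gamma gene's exonic bases are also annotated to another gene. How reads in those exons were assigned is not given in the sources used here, and gamma values are uncertain for that reason. In the beta cluster the median shared part was 0%, with Pcdhb12 at 63.5% the highest.

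All 13 gamma genes were above 0 in both comparisons. Their log2 fold changes ran from 0.05 to 0.49 with a median of 0.26 for E2F3a, and from 0.10 to 0.44 with a median of 0.30 for cocaine, in the authors' deposited tables. The intervals of 11 of 13 included 0 with E2F3a, where those of 14527 of all 14667 genes did. With cocaine those of 12 of 13 included 0, near the share over all genes (13311 of 14667).

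Pcdhga1 had the highest value with E2F3a, 0.49 (SE 0.20, 95% interval 0.04 to 0.94, p = 0.0338 unadjusted by the authors' moderated test), a 1.41-fold higher level in the authors' deposited table. Its mean log2 expression was low, 2.70 (19.4th percentile of all genes), and 47.1% of its exonic bases are also annotated to another gene. Its cocaine value was 0.38 (SE 0.22, 95% interval -0.11 to 0.87, p = 0.117) in the authors' deposited table. The interval with cocaine includes 0, and the direct difference of 0.11 had an interval of -0.38 to 0.60, so no separation of these groups was detectable.

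Pcdhga6 was the member with an unadjusted p under 0.05 in both comparisons. It stood at 0.26 (SE 0.12, 95% interval 0.0020 to 0.52, p = 0.0485 by the authors' moderated test) for E2F3a in the authors' deposited table. For cocaine it stood at 0.33 (SE 0.13, 95% interval 0.05 to 0.62, p = 0.0242 by the authors' moderated test) in the authors' deposited table. Since the GFP saline mice enter both, the pair of values is not a repeat of the same result in separate animals.

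Pcdhga5 stood at 0.34 (SE 0.19, 95% interval -0.09 to 0.76, p = 0.107) for E2F3a and 0.43 (SE 0.21, 95% interval -0.03 to 0.89, p = 0.0616) for cocaine by the authors' moderated test in the authors' deposited tables. Pcdhgb6 stood at 0.31 (SE 0.18, 95% interval -0.08 to 0.69, p = 0.105) for E2F3a and 0.39 (SE 0.19, 95% interval -0.03 to 0.80, p = 0.0638) for cocaine by the authors' moderated test in the authors' deposited tables. All 4 of these intervals include 0, and the 2 intervals of each gene overlap. Pcdhgb2 stood at 0.32 (SE 0.19, 95% interval -0.10 to 0.75, p = 0.125) for E2F3a and 0.19 for cocaine in the authors' deposited tables. Pcdhga7 stood at 0.28 (SE 0.18, 95% interval -0.12 to 0.67, p = 0.151) for E2F3a and 0.30 for cocaine in the authors' deposited tables.

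The C-type gene Pcdhgc4, needed in mice for survival of cortical interneurons, had 0.34 (SE 0.37) for E2F3a and 0.44 (SE 0.40) for cocaine in the authors' deposited tables, with wide errors. For E2F3a the remaining gamma genes stood at 0.05 for Pcdhga2, 0.06 for Pcdhga4, 0.11 for Pcdhgb1, 0.15 for Pcdhgb4, 0.23 for Pcdhgb5 and 0.26 for Pcdhgb7 in the authors' deposited table. For cocaine the same genes stood at 0.14 for Pcdhga2, 0.27 for Pcdhga4, 0.27 for Pcdhgb1, 0.10 for Pcdhgb4, 0.37 for Pcdhgb5 and 0.30 for Pcdhgb7 in the authors' deposited table.

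The beta genes split around 0 with E2F3a, 13 of 19 above it with a median of 0.06, and lay mostly above it with cocaine, 15 of 19 with a median of 0.17, in the authors' deposited tables. Pcdhb19 had the highest value of any member with cocaine, 0.52 (SE 0.23, 95% interval 0.01 to 1.03, p = 0.0452 unadjusted by the authors' moderated test), a 1.43-fold higher level in the authors' deposited table. With E2F3a it stood at 0.16 (SE 0.22, p = 0.469) in the authors' deposited table. The direct difference of -0.36 had an interval of -0.86 to 0.15, which includes 0. Pcdhb16 came next among the beta genes, at 0.27 for E2F3a and 0.43 for cocaine in the authors' deposited tables.

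Below 0 with E2F3a were Pcdhb6 at -0.22, Pcdhb12 at -0.14, Pcdhb3 at -0.08, Pcdhb20 at -0.05, Pcdhb7 at -0.02 and Pcdhb17 at -0.01 in the authors' deposited table. Above 0 with E2F3a were Pcdhb5 at 0.16, Pcdhb8 at 0.13, Pcdhb21 at 0.12, Pcdhb9 at 0.11, Pcdhb10 at 0.11, Pcdhb11 at 0.08, Pcdhb22 at 0.06, Pcdhb15 at 0.06, Pcdhb13 at 0.05, Pcdhb18 at 0.03 and Pcdhb14 at 0.0083 in the authors' deposited table. Each of these lay within 2 SEs of 0.

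With cocaine Pcdhb8 stood at -0.07, Pcdhb6 at -0.04, Pcdhb11 at -0.02 and Pcdhb3 at -0.02, the 4 members below 0, in the authors' deposited table. On the upper side with cocaine were Pcdhb21 at 0.31, Pcdhb15 at 0.23, Pcdhb20 at 0.21, Pcdhb9 at 0.19, Pcdhb14 at 0.19, Pcdhb5 at 0.18, Pcdhb10 at 0.17, Pcdhb13 at 0.17, Pcdhb17 at 0.17, Pcdhb7 at 0.15, Pcdhb12 at 0.11, Pcdhb18 at 0.11 and Pcdhb22 at 0.09 in the authors' deposited table. These too had intervals that include 0.

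Along the chromosome the cocaine estimates showed a mild gradient. Over the 19 beta genes, Spearman's correlation of position with log2 fold change was 0.18 for E2F3a and 0.46 for cocaine, and over the 13 gamma genes it was 0.16 for E2F3a and 0.37 for cocaine. These are correlations across genes that share libraries and, in part, exons, so they describe the cluster and carry no test. Level went along with the estimates as well, with a correlation across the 32 clustered genes of 0.23 for E2F3a and 0.45 for cocaine. The spread of the estimates among clustered genes (SD 0.16 for E2F3a, 0.15 for cocaine) was no wider than their median SE (0.18 for E2F3a, 0.19 for cocaine). Differences between single clustered genes were not tested.

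**Figure D4:**
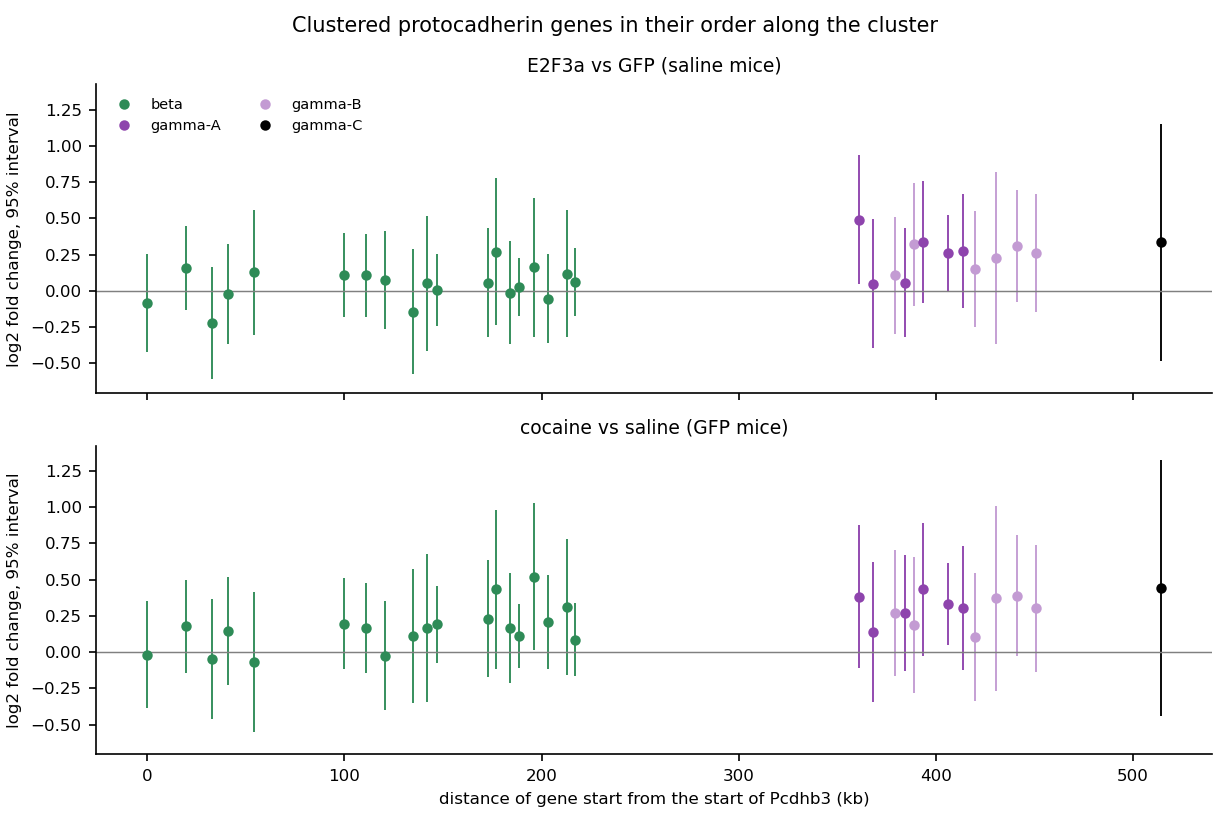
Log2 fold change with 95% interval (vertical axis) of the 32 clustered protocadherins against the distance of each gene's start from that of Pcdhb3 in kilobases (horizontal axis), with E2F3a over GFP above and cocaine over saline below, and beta, gamma-A, gamma-B and gamma-C genes in different colours. All 13 gamma genes lie above 0 in both panels, and beta genes lie between -0.22 and 0.27 for E2F3a and between -0.07 and 0.52 for cocaine.

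The direct comparison, E2F3a saline minus GFP cocaine mice, cancels the shared GFP saline group. Of the 43 members 5 were above 0 and 38 below, with a median of -0.11 against 0.03 over all genes, of which 57.7% were above 0. The lowest value was -0.39 for Pcdh18 and the highest was 0.20 for Pcdhb8. At an unadjusted p under 0.05 it held 0 members in either direction, where 3.51% of all genes were higher and 0.443% lower by the approximate moderated test. At an adjusted p under 0.05 it held 0 of 14667 genes (0%). All 43 intervals included 0, so a separation of the cocaine and E2F3a mice in protocadherin levels was not detectable at this precision, and neither was their equality shown.

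Long transcripts had higher fold changes than those of middle length in each table, and protocadherins are long. The median longest transcript was 4705 bases over the members, 8234 over the non-clustered ones, and 3277 over all genes. Over all genes with a length Spearman's correlation of log2 length with log2 fold change was 0.34 for E2F3a and 0.33 for cocaine. In the longest of 20 bins of genes by length (median 9892 bases), the median log2 fold change was 0.13 for E2F3a and 0.23 for cocaine. In a bin with a median of 1255 bases it was -0.09 for E2F3a and -0.17 for cocaine. The shortest bin (median 128 bases) went against that order, with 0.04 for E2F3a and 0.11 for cocaine.

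Removing a cubic trend in length and mean expression treated the comparisons differently. For E2F3a the members' median became 0.0093, with 23 of 43 above 0 against 48.9% of all genes. The gamma genes then had a median of 0.21 with 11 of 13 above 0, while 2 of 11 non-clustered genes were above 0 with a median of -0.05. For cocaine the members' median became 0.24, with 42 of 43 above 0 against 57.1% of all genes. All 32 clustered genes were then above 0 with a median of 0.30, and 10 of 11 non-clustered genes with a median of 0.18. Pcdh7 at -0.10 was the member below 0. The trend fitted for cocaine had a median of -0.04 over the clustered genes, so its removal raised them, and of 0.14 over the non-clustered genes. By length alone, all genes in a bin with a median of 4582 bases had a cocaine median of 0.03. The clustered genes had a median length of 4667.5 bases. The separate parts of length and mean expression in that trend were not computed. The part of length, expression or RNA quality in the fold changes was not tested.

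**Figure D5:**
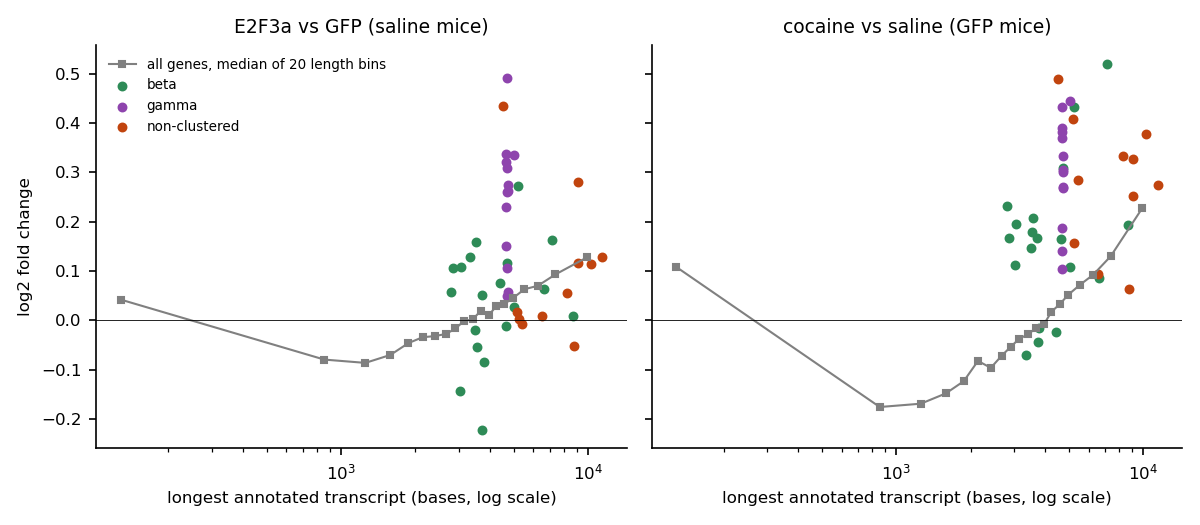
Log2 fold change (vertical axis) against length of the longest transcript in bases (horizontal axis, log scale), with E2F3a over GFP on the left and cocaine over saline on the right. The line joins the medians of 20 bins of all genes and the points are the 43 protocadherins, coloured as beta, gamma or non-clustered; the line reaches 0.13 for E2F3a and 0.23 for cocaine in the longest bin.

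Markers of cell types were read beside these results. Medium spiny neurons are the main cells of this tissue, and 9 of 10 entries of their marker list were measured at mean log2 levels of 6.37 to 9.92, with Penk at 9.92, Pde10a at 9.54 and Ppp1r1b at 9.31 in the authors' deposited tables. Their median log2 fold change was -0.07 for E2F3a and 0.08 for cocaine, with 0 of 9 at an unadjusted p under 0.05 by the authors' moderated test in either comparison. The median SE of these markers was 0.36 for E2F3a and 0.39 for cocaine, against 0.144 and 0.157 over all genes. Small changes in them are therefore not resolved. Red blood cell genes were low in both comparisons, 5 of 5 at an unadjusted p under 0.05, with medians of -0.87 for E2F3a and -1.54 for cocaine. Leukocyte genes had medians of -0.49 for E2F3a (1 of 5 at that level) and -1.72 for cocaine (5 of 5). At that level 0.409% of all genes were lower with E2F3a and 7.51% with cocaine.

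Microglial markers had medians of -0.03 for E2F3a and -0.51 for cocaine, and 3 of 5 were lower with cocaine at an unadjusted p under 0.05. Over all genes the shares lower at that level were 0.409% with E2F3a and 7.51% with cocaine. Astrocyte markers had medians of 0.20 for E2F3a and -0.45 for cocaine. With cocaine 2 of 5 were lower at that level, Gfap at -0.60 and Aldh1l1 at -0.50 in the authors' deposited table. Another 2 of 5 lay above 0 with cocaine, Slc1a3 at 0.03 and Gja1 at 0.09 in the authors' deposited table. Endothelial and mural markers had medians of -0.07 for E2F3a and -0.28 for cocaine, with 1 and 3 of 5 lower in that order. Medians for oligodendrocytes were 0.13 for E2F3a and -0.04 for cocaine, for their precursors 0.13 and 0.13, and for interneurons -0.11 and 0.09, none with a member at that level. The 3 measured markers of cortical excitatory neurons, at mean log2 levels of 1.54 to 2.93, had medians of 0.73 for E2F3a and -0.34 for cocaine in the authors' deposited tables. Their median SEs were wide, 1.22 for E2F3a and 1.33 for cocaine. Foxj1, the 1 measured marker of ependyma, had 0.45 for E2F3a and -0.27 for cocaine in the authors' deposited tables. Blood, immune and part of the glial markers were lower with cocaine while the protocadherin estimates were higher, and their part in the protocadherin values was not tested.

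Genes that act with protocadherins had medians nearer to 0 than the members had with cocaine. Of the regulators of promoter choice in the clusters, 19 of 21 entries were measured; 13 were above 0 with E2F3a (median 0.05) and 10 with cocaine (median 0.07), and 0 had an unadjusted p under 0.05 by the authors' moderated test. The cohesin subunit Rad21 stood at -0.03 for E2F3a and -0.19 for cocaine, and the repressor Rest at -0.14 for E2F3a and -0.51 for cocaine, in the authors' deposited tables. The histone methyltransferase Ehmt1 had 0.18 for E2F3a and 0.23 for cocaine in the authors' deposited tables.

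Of 22 intracellular partners and sheddases, all measured, 6 were above 0 with E2F3a (median -0.03) and 12 with cocaine (median 0.06). Wasf3, an actin regulator of the WAVE complex that delta-2 protocadherins recruit, was the 1 of 22 with an unadjusted p under 0.05 with cocaine, where 1.74% of all genes were higher at that level; it stood at 0.19 for E2F3a and 0.47 (p = 0.0133 by the authors' moderated test) for cocaine in the authors' deposited tables. Its complex partner Cyfip1 had -0.02 for E2F3a and -0.23 for cocaine, the presenilin gene Psen2 -0.12 and -0.46, and the phosphatase gene Ppp1ca -0.19 and -0.27, in the authors' deposited tables. The 6 catenins and adaptors had medians of 0.04 for E2F3a and -0.03 for cocaine with 0 at an unadjusted p under 0.05 by the authors' moderated test. Ctnna1 stood at 0.05 for E2F3a and -0.19 for cocaine, Ctnna2 at 0.04 and 0.13, Jup at -0.17 and -0.09, and Ctnnd1 at 0.03 and -0.13, in the authors' deposited tables.

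Of other cadherin superfamily genes 30 of 37 entries were measured. With E2F3a 18 were above 0 (median 0.02), 1 of them higher at an unadjusted p under 0.05, and with cocaine 22 were above 0 (median 0.13), with 4 higher and 1 lower by the authors' moderated test. Over all genes 0.545% were higher at that level with E2F3a, and 1.74% were higher and 7.51% lower with cocaine. The giant cadherin Fat4 stood at 0.58 (p = 0.0419) for E2F3a and 0.65 (p = 0.0357) for cocaine, and its ligand's relative Dchs2 at 0.47 and 0.75 (p = 0.0326 for cocaine), by the authors' moderated test in the authors' deposited tables. Cdh4 stood at 0.09 for E2F3a and 0.41 (p = 0.0343) for cocaine, and the epithelial cadherin Cdh1 at 0.02 and -1.38 (p = 0.0139 for cocaine), by the authors' moderated test in the authors' deposited tables. As deposited, medians of other cadherins thus lay between those of all genes and those of the protocadherins in both comparisons, as a description without a test. With the length and expression trend removed, that order held with cocaine (0.03 for all genes, 0.13 for other cadherins, 0.24 for protocadherins). With E2F3a other cadherins (-0.03) then lay below all genes (-0.0026) and protocadherins (0.0093).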

How the data were processed

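Poly-A RNA was made into TruSeq libraries and read as single ends, per the labels' protocols. The build mm10 and the tools HTSeq 0.6.0, TopHat2 2.0.9 and Bowtie2 2.1.0 appear, without a role, per the submitters' processing notes. How values were normalized, filtered, annotated and tested is not given in the sources used here. Per the file headers, the 2 deposited tables of 14667 genes hold log2 fold changes and mean log2 expression, score columns (a t statistic and log odds), and unadjusted and adjusted p-values. The column names are those of limma, and the deposited p-values matched 11.29 degrees of freedom. Depth per library is unknown.

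Each SE is the ratio of the log2 fold change to t, and 95% intervals rest on those degrees of freedom. Because no values per library were used, the planned count tests were replaced by the authors' statistics. The difference between E2F3a saline and GFP cocaine mice was tested with the cocaine table's SE scaled by group sizes, which assumes equal weight for each library, so it is an approximation. Lengths came from GENCODE M21 (99.4% of genes) and promoters from RefSeq. Python 3.11.15, numpy 2.4.6, pandas 2.3.3, scipy 1.17.1 and matplotlib 3.10.9 were used.

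Members and gene lists were chosen with earlier results of these data known. Every member is named; full statistics go to the 6 smallest p-values in each comparison and the 3 highest levels. From each list up to 4 genes with the smallest p are named, except an item that is not reported here; marker genes named beyond these were chosen after their values were seen. Where nothing says otherwise, p-values measure the spread between single mice. Scaled by its expected value under no effect, the mean squared t over all genes was 0.59 for E2F3a and 1.46 for cocaine. The SEs, and the intervals built on them, may therefore suit the comparisons unequally, which was not tested.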

Additional observations from a re-analysis of the deposited data

How the results depend on the processing

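No paired analysis was possible because the deposited tables hold comparison statistics and no values per library; for the same reason edgeR, DESeq2, a filter on low counts and leaving out a library could not be run. The number of members called was 0 at an adjusted p under 0.05, under 0.1 and after adjustment over expressed genes alone. It was 2 for E2F3a and 3 for cocaine at an unadjusted p under 0.05, and 1 for each when a fold over 1.3 was also asked. Both thresholds are looser by construction. At an unadjusted p under 0.05, 0.545% of all genes were higher and 0.409% lower with E2F3a, and 1.74% and 7.51% with cocaine. The share of all genes with the fold also asked was not computed, so the count of 1 stands without a comparison. For E2F3a 1 of the 2, Pcdhga6, lay above the 25th percentile of mean expression, and Pcdhga1 lay below it. The number of members above 0 with E2F3a was 35 as deposited and 23 with the length and expression trend removed; whether length is the cause was not tested. Signs turned for 12 members with E2F3a under that removal: Pcdhb14 to -0.13, Pcdh20 to -0.075, Pcdh9 to -0.059, Pcdh18 to -0.055, Pcdh10 to -0.047, Pcdhb18 to -0.044, Pcdhb22 to -0.035, Pcdh19 to -0.028, Pcdh17 to -0.018, Pcdhga2 to -0.012, Pcdh11x to -0.0090 and Pcdhga4 to -0.0076. With cocaine 5 turned, Pcdhb3 to 0.069, Pcdhb6 to 0.044, Pcdhb8 to 0.035, Pcdhb11 to 0.033 and Pcdh7 to -0.10. Subtracting the median of all genes turned Pcdh20 with E2F3a to -0.0045 and Pcdhb3 with cocaine to 0.0038. Medians for subsets of members in the direct comparison, chosen after seeing the data, ran from -0.26 for delta-2 to -0.09 for clustered genes, and other SEs for it left 0 members at an unadjusted p under 0.05. Median SEs over the members of 0.18 for E2F3a and 0.19 for cocaine on the log2 scale limit what these groups can resolve.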
